A study of Mus musculus with 5 samples.

Results

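The proliferation and mitosis genes are 42 genes that cells transcribe while they copy and divide their chromosomes, out of 28692 genes counted in mouse bone marrow. They were given as a list of names, and all 42 were found. The list places 17 in an S group, for the phase when DNA is copied, and 25 in a G2 and M group, for the phases when the copies are checked and separated. Stmn1 and Fbxo5 stand in the S group although Stmn1 regulates microtubules and Fbxo5 inhibits a mitotic ubiquitin ligase. Bone marrow was collected from 5 C57BL/6J mice aged 8 weeks, each given 1000 BCR-ABL1+ pre-B acute lymphoblastic leukaemia cells by tail vein without irradiation. A single mouse was taken at each of day 0, directly after the injection, and days 3, 6, 9 and 12, so the day 0 mouse carried the transplant as well. Marrow from femurs and tibias, flushed and enzymatically released, was sequenced by the droplet method of 10x Genomics, which counts RNA molecules by unique molecular identifiers (UMIs) read at the 3' end. Barcodes with at least 500 UMIs were kept, 32135 in all and 5474 to 7604 per library. The libraries held 33425695 to 43554233 UMIs, and the median barcode 2874 to 3786.

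With 1 mouse and 1 library per day, a day and a mouse cannot be told apart, and no test between days was made. Every interval below is a 95% interval that covers counting error only, and all comparisons over time share the day 0 library. Over 5 libraries, an exact two-sided comparison could not go below p = 0.0625. Pairs of libraries shared 44 to 73 barcodes, beside 43.6 to 68.9 for independent draws. Leukaemic cells were not identified in these counts, so all values describe the mixed marrow of the host and the graft. By flow cytometry, the paper found few or no leukaemia cells in the marrow before the last day, and a larger share then.

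S phase needs the minichromosome maintenance (Mcm) helicase, loaded at origins beforehand, the sliding clamp Pcna and a supply of deoxynucleotides from ribonucleotide reductase (Rrm1, Rrm2) and thymidylate synthase (Tyms). Entry into mitosis is driven by Cdk1 with the cyclins Ccna2, Ccnb1 and Ccnb2, and exit by a ubiquitin ligase that Cdc20 activates and Ube2c serves. In the marrow, committed myeloid and B-lineage precursors divide rapidly, whereas neutrophils leave the cycle as they mature.

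Promoters of the list differed between its S and its G2 and M members in how often they held some short sequence words. The 5 shown belong to genes among the 7 with the most UMIs and span both groups. Only promoters that held a searched word could be chosen, so the presence of a word in them is not a result. The sequences, from RefSeq on GRCm38.p6, are the 250 bases before the annotated start, read in the direction of the gene. They come from chr2:164769679-164769928 (plus strand) for Ube2c, chr11:117848987-117849236 (plus) for Birc5, chr5:30666636-30666885 (plus) for Cenpa, chr2:132253181-132253430 (minus) for Pcna and chr12:24708004-24708253 (plus) for Rrm2. Capitals mark the word CCAAT and the words TTTGAA and TTTAAA, known together as the cell cycle homology region (CHR), on either strand.
Ube2c promoter: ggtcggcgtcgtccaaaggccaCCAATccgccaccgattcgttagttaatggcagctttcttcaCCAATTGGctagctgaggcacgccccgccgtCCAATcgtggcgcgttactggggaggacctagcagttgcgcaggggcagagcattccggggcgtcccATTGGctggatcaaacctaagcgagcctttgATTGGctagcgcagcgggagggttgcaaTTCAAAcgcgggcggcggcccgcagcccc
Birc5 promoter: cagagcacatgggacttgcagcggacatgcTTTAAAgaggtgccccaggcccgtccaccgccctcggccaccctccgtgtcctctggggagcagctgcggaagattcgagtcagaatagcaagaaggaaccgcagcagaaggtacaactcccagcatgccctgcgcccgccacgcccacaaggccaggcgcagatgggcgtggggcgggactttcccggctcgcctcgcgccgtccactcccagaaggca
Cenpa promoter: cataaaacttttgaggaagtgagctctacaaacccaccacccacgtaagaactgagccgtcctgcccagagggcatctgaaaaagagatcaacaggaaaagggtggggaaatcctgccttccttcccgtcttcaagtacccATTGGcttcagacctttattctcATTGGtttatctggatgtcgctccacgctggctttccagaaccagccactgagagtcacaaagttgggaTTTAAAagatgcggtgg
Pcna promoter: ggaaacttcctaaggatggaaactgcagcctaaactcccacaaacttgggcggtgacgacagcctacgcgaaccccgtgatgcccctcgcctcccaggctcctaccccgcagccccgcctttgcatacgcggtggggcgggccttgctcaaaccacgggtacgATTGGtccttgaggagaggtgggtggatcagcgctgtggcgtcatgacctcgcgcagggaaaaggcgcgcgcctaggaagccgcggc
Rrm2 promoter: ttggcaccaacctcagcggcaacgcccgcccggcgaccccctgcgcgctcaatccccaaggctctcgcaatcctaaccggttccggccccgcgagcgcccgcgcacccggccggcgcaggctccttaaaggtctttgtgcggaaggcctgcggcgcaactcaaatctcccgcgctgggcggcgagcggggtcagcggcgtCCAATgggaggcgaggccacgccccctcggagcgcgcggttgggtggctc
In Ube2c, which hands ubiquitin to the mitotic ligase, 6 CCAAT words lay 228 to 57 bases before the start and a CHR word lay at 29 bases. In Cenpa, the histone that marks centromeres, 2 CCAAT words lay at 109 and 86 bases and a CHR word at 17 bases. The Birc5 window held a CHR word at 220 bases and the Pcna and Rrm2 windows a CCAAT word each, at 87 and 50 bases. Beyond the bases shown, Rrm2, an S member, also held a CHR word directly at its start. Cenpa held a second CHR word 16 bases after its start.

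Promoter windows of 250 bases before to 50 after the start were found for 36 of the 42 members, and Mcm4, Gins2, Stmn1, Ccna2, Aurkb and Tpx2 were not among them. A CHR word stood in 86.4% of 22 windows of G2 and M members, in 31.2% of 16 windows of S members and in 27.6% of all 32851 windows. CCAAT stood in 77.3%, 87.5% and 37.4%. The E2F words TTTGGCGC, TTTCCCGC, TTTCGCGC and TTTGCCGC, searched on both strands, stood in 4.55% of G2 and M windows, 37.5% of S windows and 2.26% of all windows. CHR and CCAAT words together stood in 72.7%, 31.2% and 10.7%. CHR words can overlap other words, and a match is a string of letters, not a site of binding.

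In the whole libraries, the list was lowest at day 0 and highest at day 3. Its summed level was 21.8 UMIs per 10000 at day 0 and 27.6, 26.4, 26.6 and 23.3 at days 3, 6, 9 and 12. Relative to day 0 the level was 1.27-fold (1.25 to 1.28), 1.21-fold (1.20 to 1.22), 1.22-fold (1.21 to 1.23) and 1.07-fold (1.06 to 1.08). The S and the G2 and M members contributed similarly throughout, with 52.1 to 55.0% of the list's UMIs from G2 and M members.

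The share of barcodes with at least 3 UMIs of the list was also lowest at day 0 and highest at day 3. It was 29.5% (28.4 to 30.6, Clopper-Pearson) at day 0, 39.4% (38.1 to 40.7) at day 3, 37.2% (36.1 to 38.4) at day 6, 36.6% (35.5 to 37.7) at day 9 and 29.8% (28.6 to 31.0) at day 12. Each count depends on depth, and when every barcode was thinned to 1000 UMIs the shares were 15.5, 20.1, 16.5, 18.3 and 16.2%. That left out 405 to 738 barcodes per library. The limit of 3 UMIs fell in a steep part of the distribution, since 830 to 1269 barcodes per library had 2 UMIs of the list and 356 to 646 had 3.

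A part of the difference between libraries moved with their cell classes. With the levels of each library weighted by the class mix of day 0, the summed level was 26.0, 27, 27.2 and 26.7 per 10000 at days 3 to 12, and the day 12 fold became 1.22 in place of 1.07. A group of 121 pro/pre-B-like cells, all of day 3 and described further on, also counted: without it, the day 3 level was 25.9 and the share 38.0%. At day 12 the median mitochondrial share was 0.691%, against 1.66 to 2.19% in the other libraries, and a limit of 3 median absolute deviations above it would remove 35.8% of the list's UMIs and 76.4% of GMP-like cells there. In the other libraries that limit would remove 1.70 to 3.62% of the list's UMIs. No such limit was used here, and with it the day 12 level was 0.861 of day 0. RNA outside cells carried the list too, at 28.6 to 34.4 UMIs per 10000 in barcodes with at most 100 UMIs, above the level of the cells.

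To place the list in cell types, barcodes were clustered without the cell cycle genes, and clusters were named from marker genes. Classes are written with the ending -like. Their clusters held 8 of 9 markers of GMPs, 8 of 9 of neutrophil precursors, 7 or 8 of 8 of monocytes, 9 to 13 of 14 of pro/pre-B cells and 9 of 9 of plasmacytoid dendritic cells at a raised level. Because clusters were made from the same cells, differences between classes are a description. Ube2c stood among the 10 leading genes of the neutrophil precursor-like cluster, and Birc5, Stmn1 and Ube2c among those of an unnamed cluster of 256 barcodes with few UMIs. The class called GMP-like, for granulocyte-macrophage progenitors, was mixed: clustered again, 413 of its 1394 cells were stem and multipotent progenitor-like, and 323 stayed unnamed with 6 of 8 monocyte progenitor markers. Scrublet called 2.32% of barcodes doublets at day 0 and at most 0.0341% in the other 4 libraries, where it had not worked, so doublets were left in.

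The list was highest in pro/pre-B-like cells, the B-lineage precursors. Their level was 55.9 UMIs per 10000 at day 0 and 55.7, 70.7, 72 and 66.8 at days 3, 6, 9 and 12. GMP-like cells followed with 38.9, 47.1, 42.8, 43.4 and 46.2, and neutrophil precursor-like cells with 34.5, 38.1, 40.5, 39.4 and 37.5. These classes did not overlap with one another over the 5 libraries, except that the lowest GMP-like library lay within the range of neutrophil precursor-like cells. Monocyte-like cells lay at 23.0, 27.6, 31.1, 30.8 and 35.0 and plasmacytoid dendritic-like cells at 27.2, 21.9, 21.1 and 25, the latter without day 12, where there were 35 cells.

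**Figure D1:**
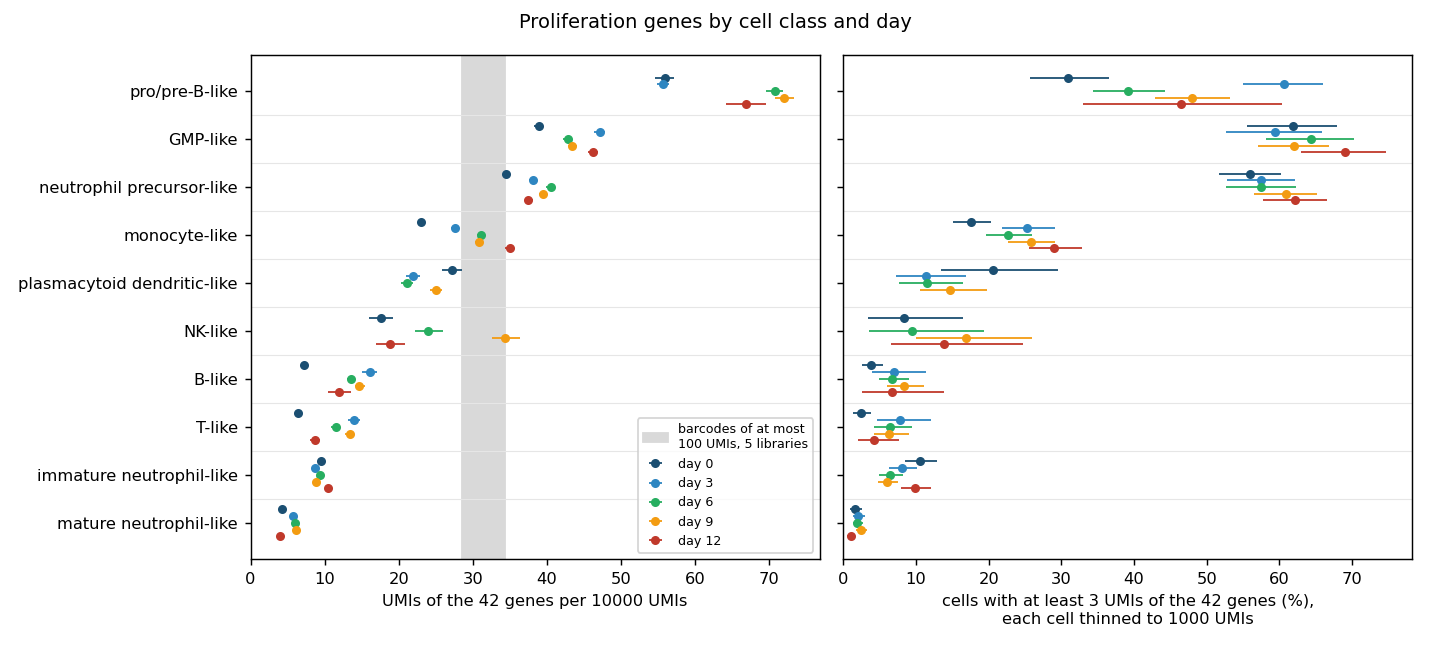
Summed level of the 42 genes in UMIs per 10000 UMIs (horizontal axis) in each cell class on the 5 days, with 1 library per point and 95% Poisson intervals. Pro/pre-B-like cells lie highest, at 55.7 to 72, and mature neutrophil-like cells lowest, at 3.92 to 6.12.

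Along the neutrophil lineage the level fell in steps. Immature neutrophil-like cells had 9.45, 8.64, 9.31, 8.80 and 10.5 UMIs of the list per 10000, and mature neutrophil-like cells 4.20, 5.70, 6.04, 6.12 and 3.92. The ranges of the precursor, immature and mature classes did not overlap. All 42 members were lower in immature than in precursor cells in every library, with a median ratio of 0.206 over the S members and 0.259 over the G2 and M members. Anln, which organises the cleavage furrow, kept the most, at 0.413 of its precursor level in the median library, and Gins2, a part of the replicative helicase, the least, at 0.148.

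Counted per cell after thinning, the GMP-like, neutrophil precursor-like and pro/pre-B-like classes overlapped, and mature neutrophil-like cells lay far below them. After thinning to 1000 UMIs, 59.4 to 69.0% of GMP-like and 56.0 to 62.2% of neutrophil precursor-like cells had at least 3 UMIs of the list. Pro/pre-B-like cells were spread more widely, with 30.9, 60.6, 39.2, 48.0 and 46.4% by day. In mature neutrophil-like cells, which no longer divide and were taken as the background, the thinned share was 1.60, 2.03, 1.91, 2.39 and 0.991%. Their unthinned share was 4.15, 10.8, 11.8, 13.1 and 6.54% at a median of 1918 to 2556 UMIs. That background was not constant. Its summed level was 1.36-fold (1.26 to 1.46), 1.44-fold (1.34 to 1.54), 1.46-fold (1.36 to 1.56) and 0.931-fold (0.862 to 1.01) of day 0 at days 3, 6, 9 and 12. Unthinned, the shares were 97.3 to 99.6% of GMP-like cells at a median of 12653 to 14684 UMIs and 82.8 to 89.4% of neutrophil precursor-like cells at 9502 to 11289.

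A few cells held much of the list in other classes. In monocyte-like cells the median cell had 4.18 to 6.46 UMIs of the list per 10000 and the cell at the 90th percentile at least 64.3, and the 10% of cells with the most held 43.6 to 57.8% of the list's UMIs. In plasmacytoid dendritic-like cells these 10% held 67.3 to 75.1%. In GMP-like and neutrophil precursor-like cells they held 14.8 to 25.4%, so there the list was spread over most of the class.

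Pro/pre-B-like cells were made of groups with very different levels. Clustered again, a group of 290 cells had 127 UMIs of the list per 10000, and 93.1% of its cells had at least 3. The largest group, of 633 cells, had 13.7 per 10000 and 22.7% of such cells. Rag1, which cuts immunoglobulin genes for rearrangement, was among the 10 leading genes of the 633 cells, and Ezh2, a histone methyltransferase and a member of the list, among those of the 290. All of these groups were made from the genes of the same cells, so the contrast is a description.

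B-like and T-like cells were low, at 7.28, 16.1, 13.5, 14.7 and 11.9 UMIs of the list per 10000 for B-like cells and 6.34, 14.0, 11.5, 13.4 and 8.67 for T-like cells. Their thinned shares of cells with at least 3 UMIs were 3.75 to 8.32% and 2.35 to 7.76%, above those of mature neutrophil-like cells in each library. Day 0 was the lowest library in both classes. The level rested on few cells, since the 10% of cells with the most held 49.6 to 71.8% of the list in B-like and 38.4 to 64.6% in T-like cells, and without them the level was 4.11 to 6.37 and 4.26 to 6.10.

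Those B-like and T-like cells also carried markers of another class. All 9 neutrophil precursor markers had UMIs in both classes in every library. In T-like cells with at least 3 UMIs of the list, they summed to 293, 158, 183, 260 and 135 UMIs per 10000 by day, against 69.2 to 93.3 in the other T-like cells. In B-like cells the sums were 279, 161, 293, 268 and 62.4, against 74.9 to 147, so day 12 ran the other way. Of the 14 pro/pre-B markers, 9 to 14 had UMIs in B-like cells, with Rag2 at 0 at days 0, 3 and 12, and their sum was lower in B-like cells with at least 3 UMIs of the list than in the other B-like cells in all 5 libraries, at 33.2 to 53.4 against 57.3 to 78.6. Whether droplets with RNA of more than 1 cell raised the list in these classes was not tested. NK-like cells, 67 to 101 per library without day 3, had 17.6, 24.0, 34.4 and 18.8 UMIs of the list per 10000 at days 0, 6, 9 and 12, with 71.2 to 81.0% in the top 10% of cells.

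Few classes supplied most of the list. GMP-like cells were 3.74 to 5.27% of barcodes and held 18.6 to 24.9% of its UMIs. Neutrophil precursor-like cells, 6.44 to 8.18% of barcodes, held 21.3 to 30.8%. Monocyte-like cells held 15.2 to 21.7%. The share from pro/pre-B-like cells changed most, with 11% at day 0 and 24.1, 15.9, 14.1 and 3.69% afterwards. At day 12 that class had 58 cells, against 318 to 434 before.

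Of the single members, Stmn1, a regulator of microtubules that the list places in S phase, gave 82319 UMIs or 20.7% of the list. Ube2c gave 33580 (8.46%), Birc5, a subunit of the chromosomal passenger complex, 27314 and Cenpa 22265. At the other end were the checkpoint kinase Bub1 with 1590 and Anln with 1579. The list's sum therefore leans on a few genes, and each role is given with its own values next.

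Among the licensing genes, which load and form the replicative helicase, GMP-like and pro/pre-B-like cells stood together and neutrophil precursor-like cells lower. Mcm7 had 1.16, 1.37, 1.14, 1.17 and 1.35 UMIs per 10000 in GMP-like cells, 1.34, 1.11, 1.38, 1.28 and 1.49 in pro/pre-B-like and 0.459, 0.490, 0.530, 0.537 and 0.532 in neutrophil precursor-like cells. Mcm6 had 0.85, 1.44, 1.34, 1.33 and 1.10 in GMP-like cells and 0.244, 0.361, 0.378, 0.459 and 0.385 in neutrophil precursor-like cells. The GMP-like and precursor ranges did not overlap for any of Mcm2 to Mcm7. Their median ratio of precursor to GMP-like level ran from 0.287 (Mcm6) to 0.446 (Mcm4).

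The fork and nucleotide genes split. Pcna, the clamp that holds DNA polymerase, had 1.99, 2.14, 1.98, 2.0 and 2.24 UMIs per 10000 in GMP-like cells, 2.70, 2.58, 2.85, 3.19 and 3.78 in pro/pre-B-like and 1.24, 1.10, 1.23, 1.30 and 1.42 in neutrophil precursor-like cells. Rrm2, the small subunit of ribonucleotide reductase, went the other way in precursors, with 2.0, 2.01, 1.96, 1.87 and 1.79 against 1.5, 1.40, 1.32, 1.37 and 1.61 in GMP-like cells. Its large subunit Rrm1 was lower in precursors, at 0.511 to 0.652 of the GMP-like level. The 2 subunits of 1 enzyme thus differed in direction between the classes in every library.

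Among the chromatin members and regulators, Stmn1 had 10.5, 12.4, 10.3, 11.3 and 13 UMIs per 10000 in GMP-like cells, 13.4, 10.0, 15.5, 16.1 and 15.6 in pro/pre-B-like and 6.39, 6.84, 6.55, 6.71 and 7.52 in neutrophil precursor-like cells. Ezh2 set pro/pre-B-like cells apart, with 3.28, 2.41, 3.59, 3.35 and 2.75 against 0.776 to 0.928 in GMP-like cells. Its ratio to GMP-like cells, 4.0 in the median library, was the highest of the 42 members. Uhrf1, which maintains DNA methylation, followed among S members at 2.34. Fbxo5, an inhibitor of the mitotic ubiquitin ligase, and the DNA glycosylase Neil3 were higher in precursors than in GMP-like cells in all 5 libraries, at 1.41 and 1.51 in the median library.

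For the kinases and cyclins the myeloid classes lay close together. Cdk1, the mitotic kinase, had 1.16, 1.17, 0.905, 1.08 and 1.15 UMIs per 10000 in GMP-like cells and 1.10, 1.28, 1.21, 1.23 and 1.16 in neutrophil precursor-like cells. Ccnb2 had 0.956, 1.06, 0.964, 0.889 and 0.934 against 0.924, 1.20, 1.18, 1.27 and 1.01. In both genes the ranges overlapped. Of the 2 G2 and M members that were lower in precursors in all 5 libraries, Aurkb, the catalytic kinase of the passenger complex, had a median ratio of 0.747 and Bub1b, a checkpoint component, 0.897. Pro/pre-B-like cells were higher in Ccna2, at 1.20, 1.44, 1.67, 1.84 and 1.34 against 0.488 to 0.760 in GMP-like cells.

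Ube2c and Cdc20, which serve the mitotic ubiquitin ligase, were both higher in neutrophil precursor-like than in GMP-like cells in all 5 libraries. Ube2c had 4.46, 4.43, 4.97, 4.52 and 3.92 UMIs per 10000 in precursors, 2.44, 2.23, 2.54, 2.15 and 2.48 in GMP-like cells and 2.95, 4.12, 3.91, 4.17 and 3.69 in pro/pre-B-like cells. Its precursor to GMP-like ratio, 1.96 in the median library, was the highest of the list. Cdc20 had a ratio of 1.5, with 0.696, 0.737, 0.858, 0.747 and 0.762 in precursors and 0.540, 0.592, 0.551, 0.498 and 0.491 in GMP-like cells. Since Ube2c was among the leading genes of the precursor cluster, its value there is a property of that cluster.

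Among centromere, spindle and chromosome genes named here, Cenpa, Cenpf, Birc5, Nusap1 and Mki67 were higher in precursors than in GMP-like cells in each library. Top2a was not. The ratio of Cenpf ran from 1.02 to 1.62 and that of Mki67, a chromosome gene like Top2a, from 1.04 to 1.81. Cenpa had 1.76, 2.02, 2.26, 2.25 and 2.0 UMIs per 10000 in precursors, 1.70, 1.79, 1.78, 1.60 and 1.66 in GMP-like cells and 2.31, 2.87, 2.97, 3.34 and 2.52 in pro/pre-B-like cells. Cenpf, a kinetochore protein, was highest in pro/pre-B-like cells, at 0.877, 1.21, 1.56, 1.5 and 1.12 against 0.301 to 0.498 in GMP-like cells. Birc5 had 2.68, 2.92, 3.22, 3.10 and 3.00 in precursors and 2.16, 2.34, 2.31, 2.17 and 2.81 in GMP-like cells. For Cenpa and Birc5 the ranges of these classes overlapped. Nusap1, which bundles spindle microtubules, had a ratio of 1.21 in the median library. Top2a, which untangles chromosomes, had 1.54, 1.76, 2.16, 1.89 and 1.64 in precursors and 1.29, 2.21, 2.19, 2.23 and 1.94 in GMP-like cells, higher in precursors at day 0 only.

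**Figure D2:**
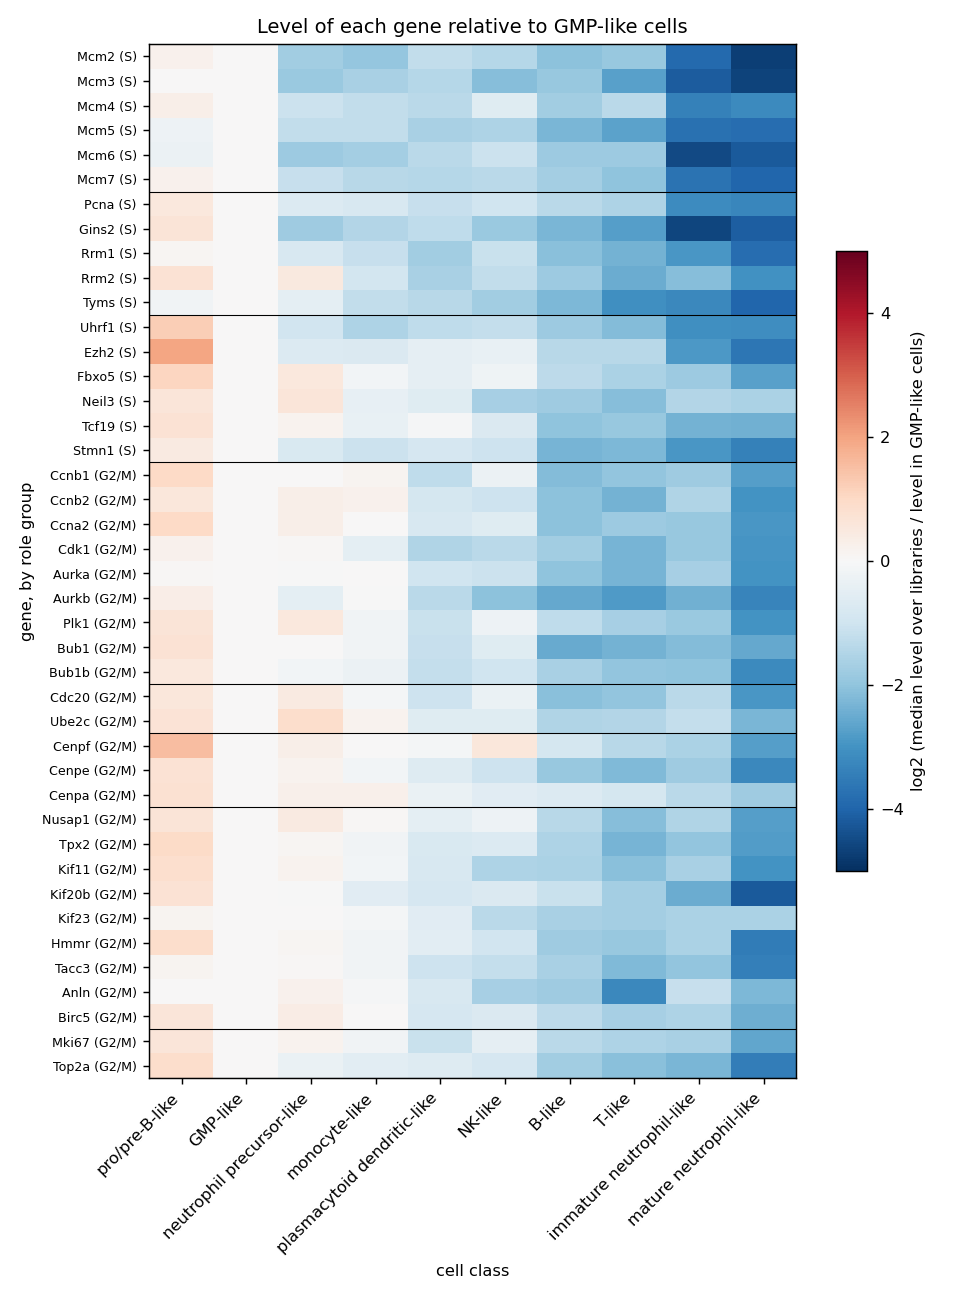
Level of each of the 42 genes in 10 cell classes relative to GMP-like cells, as log2 of the ratio of median levels over the libraries, with genes grouped by role and the S or G2 and M group in brackets. Ezh2 in pro/pre-B-like cells stands out in red, and the licensing genes, together with Gins2, are deep blue in the immature and mature neutrophil-like columns.

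Pro/pre-B-like cells held the highest level of 34, 29, 38, 35 and 35 of the 42 members by day, counted over the named classes with at least 50 cells. In every library they were highest for 25 members, 18 of the 25 G2 and M members and 7 of the 17 S members. GMP-like cells were highest in every library for Mcm5 and neutrophil precursor-like cells for Ube2c. Of the 42 members, only Mcm5 was lower in pro/pre-B-like than in GMP-like cells in all 5 libraries, at 0.912 in the median library.

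**Figure D3:**
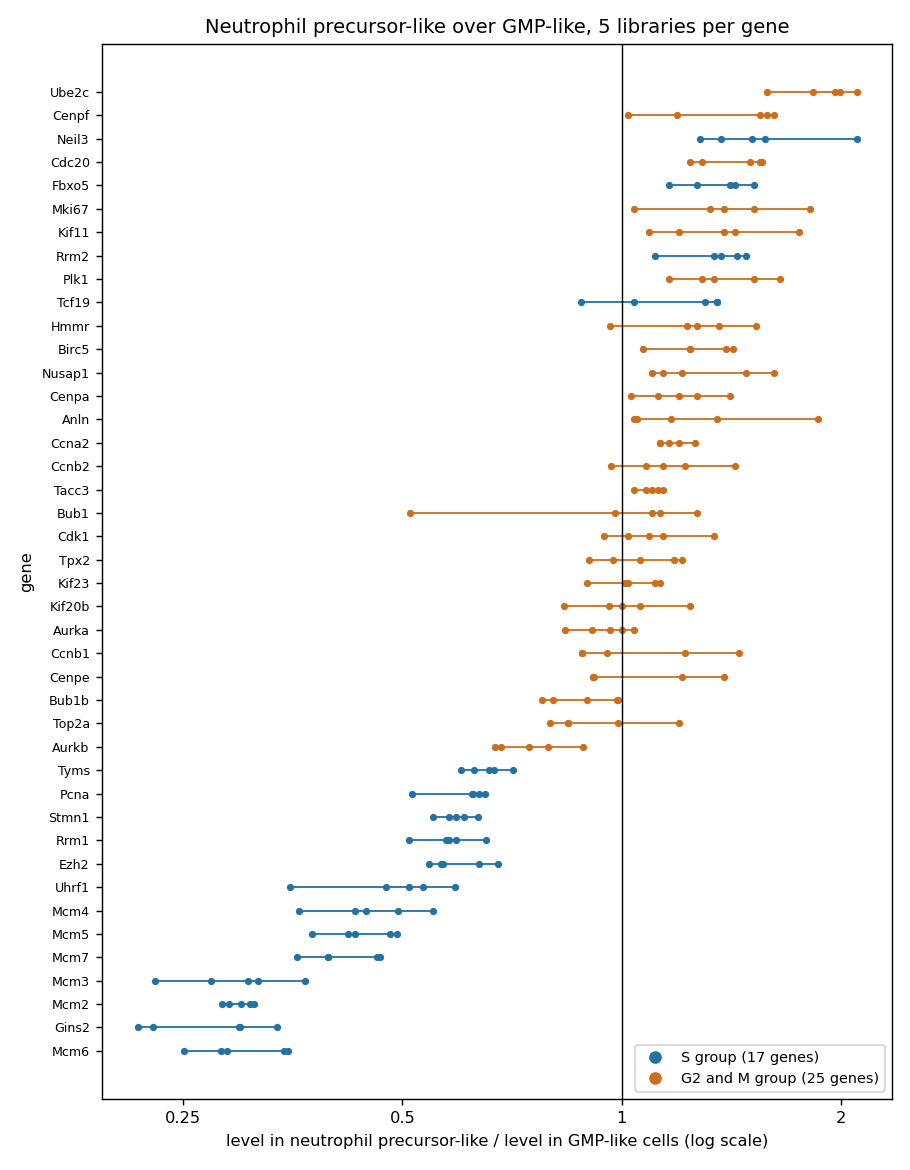
Ratio of the level in neutrophil precursor-like to that in GMP-like cells (log axis) for each gene, with 1 point per library, S members and G2 and M members in different colours. The licensing genes lie between 0.229 and 0.551 and Ube2c between 1.58 and 2.1.

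Between GMP-like and neutrophil precursor-like cells, the balance of the list moved from S to G2 and M. Of the 17 S members, 13 were lower in precursors in all 5 libraries, 3 (Rrm2, Fbxo5 and Neil3) were higher in all and Tcf19 was mixed. Of the 25 G2 and M members, 12 were higher in all, 2 were lower in all and 11 were mixed. Members from G2 and M gave 40.8, 41.0, 43.5, 41.4 and 40.7% of the list's UMIs in GMP-like cells and 57.9, 59.0, 62.0, 60.1 and 56.7% in precursors, so the classes did not overlap and the median difference was 18.0 percentage points. Because Stmn1 alone was a large part of the S group, the share was also taken without it and was 55.7 to 57.3% in GMP-like cells and 70.9 to 73.9% in precursors. The GMP-like class was mixed. Clustered again, its groups ran from 33.6%, in stem-like cells led by Cd34 and Adgrg1, to 48.8% over all days. The latter group, led by Elane and Prtn3, had 47.5 to 52.2% by day, nearer to precursors but still below them. Another group, of 229 cells and led by Elane and Ctsg, had 40.1% over all days and 31.2 to 45.2% by day. How far this makeup gave the 18.0 points was not tested.

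The later neutrophil and monocyte classes lay on the side of G2 and M as well. The share was 62.4 to 67.3% in immature neutrophil-like cells and 57.0 to 61.7% in monocyte-like cells. Against GMP-like cells, 14 of 17 S members were lower in monocyte-like cells in all 5 libraries, and 19 of 25 G2 and M members were mixed, with median ratios of 0.445 and 0.982. Cenpa was the 1 member higher in all libraries. Mature neutrophil-like cells had 53.5 to 58.0%, which can be set beside 49.6 to 52.5% in RNA outside cells. Pro/pre-B-like cells stood between, with 43.3, 51.7, 46.9, 47.2 and 44.6%.

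**Figure D4:**
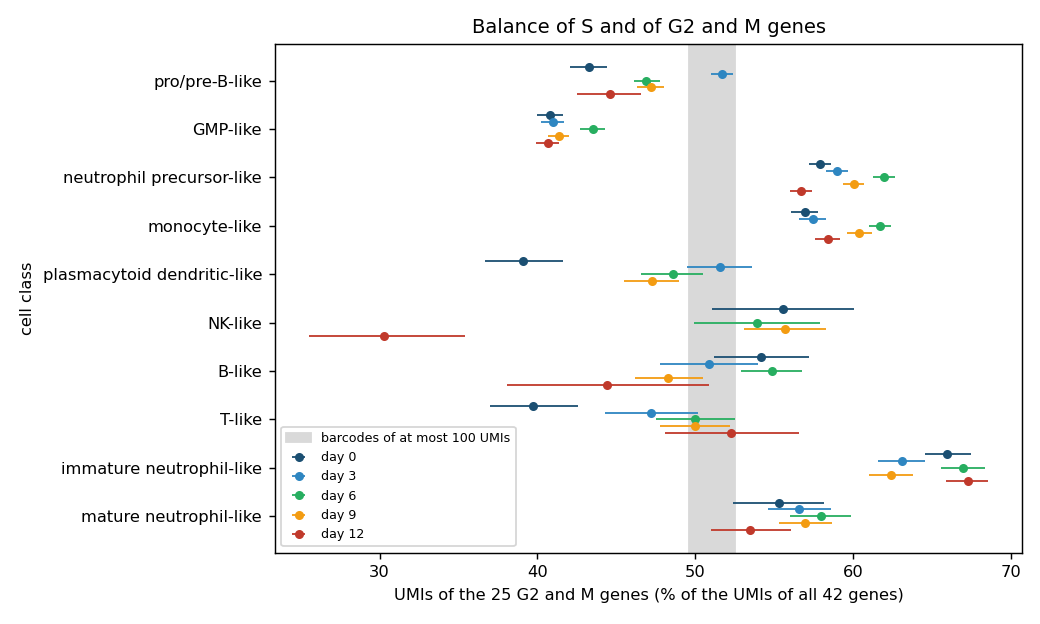
Share of the list's UMIs that came from the 25 G2 and M members (percent, horizontal axis) by cell class and day, 1 library per point with 95% Clopper-Pearson intervals. GMP-like cells lie at 40.7 to 43.5%, below neutrophil precursor-like cells at 56.7 to 62.0% in every library.

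Within classes, the list was compared with day 0. A gene was counted as higher or lower when its level differed over 1.5-fold and at least 50 UMIs were summed over both libraries, without any test. The same counts over all genes are given beside them as background. In GMP-like cells, 13, 11, 8 and 8 of 42 members were higher at days 3, 6, 9 and 12 and none lower. Of all genes, 16.2, 17.2, 16.3 and 5.28% were higher and 3.12, 3.79, 3.98 and 3.36% lower. The members' median log2 fold was 0.28, 0.20, 0.19 and 0.26, against 0.16, 0.15, 0.13 and 0.03 over all genes, so at day 9 the members' share of 19.0% was near the background. The summed list was 1.21-fold (1.18 to 1.24), 1.10-fold (1.08 to 1.13), 1.12-fold (1.09 to 1.14) and 1.19-fold (1.16 to 1.22) of day 0.

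In GMP-like cells, 8 members passed 1.5-fold at days 3, 6 and 9: Mcm6, Rrm1, Plk1, Bub1b, Kif11, Anln, Mki67 and Top2a. That is 19.0% of the members, beside 7.45% of all genes with enough UMIs on these days. Mki67, the proliferation antigen Ki-67, had 0.577 UMIs per 10000 at day 0 and 1.21, 1.11, 1.16 and 0.928 afterwards, which is 2.09-fold (1.77 to 2.49), 1.92-fold (1.62 to 2.28), 2.01-fold (1.71 to 2.37) and 1.61-fold (1.34 to 1.93). Rrm1 had 0.548, 1.07, 0.868, 0.984 and 1.03, with folds of 1.95 (1.64 to 2.34), 1.58 (1.32 to 1.90), 1.80 (1.52 to 2.13) and 1.87 (1.56 to 2.24). In both genes the day 0 library was the lowest of the 5. Pcna, in contrast, stayed at 1.08, 0.998, 1.01 and 1.13 of its day 0 level, and Ube2c had 2.15 to 2.54 UMIs per 10000 over all days. The mitotic kinase Plk1 and the spindle motor Kif11 passed 1.5-fold at day 12 as well, at 1.54 and 1.81. The makeup of the class also differed: its more stem-like group, led by Cd34, Adgrg1 and Hlf, had 10 of 250 cells at day 0 and 46 of 224, 50 of 261, 81 of 401 and 20 of 258 afterwards. Its part in these folds was not tested. In the cluster led by Elane and Prtn3, granule protease genes of GMPs, the list's level was 33.1, 32.5, 32.6, 33.5 and 37.6, so it was 32.5 to 33.5 from day 0 to day 9 and higher at day 12. In the cluster led by Cd34 it was 43.6, 50.6, 46.9, 47.7 and 52.9, lowest at day 0.

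In neutrophil precursor-like cells the members followed the rest of the genes. At days 3, 6, 9 and 12, 4, 7, 9 and 4 of 42 members were higher and none lower, beside 13.8, 21.0, 22.0 and 6.84% of all genes higher and 4.67, 3.99, 4.18 and 4.12% lower. The median log2 fold was 0.18, 0.29, 0.25 and 0.19 over the members and 0.19, 0.27, 0.26 and 0.07 over all genes. Rrm1, Ccna2 and Bub1b were higher at days 3, 6 and 9, which is 7.14% of the members beside 7.84% of all genes. Rrm1 had 0.325 UMIs per 10000 at day 0 and 0.613, 0.565, 0.570 and 0.524 afterwards, or 1.89-fold (1.57 to 2.27), 1.74-fold (1.44 to 2.11), 1.76-fold (1.46 to 2.12) and 1.61-fold (1.33 to 1.96). Ccna2, the cyclin of S and G2, had 0.550, 0.885, 0.882, 0.913 and 0.642, which was no longer past 1.5-fold at day 12 (1.17-fold, 0.998 to 1.37).

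In monocyte-like cells the members lay above other genes on every later day. Of 42 members, 9, 16, 15 and 22 were higher at days 3, 6, 9 and 12 and none lower, beside 7.58, 8.19, 8.53 and 6.58% of all genes higher and 4.33, 3.47, 4.60 and 3.19% lower. The median log2 fold of the members was 0.34, 0.50, 0.50 and 0.59, and that of all genes 0.08, 0.10, 0.06 and 0.07. The summed list was 1.20-fold (1.17 to 1.23), 1.35-fold (1.32 to 1.39), 1.34-fold (1.31 to 1.37) and 1.52-fold (1.49 to 1.56) of day 0.

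Mcm6, Aurkb, Plk1, Bub1b and Anln passed 1.5-fold at days 3, 6 and 9 in monocyte-like cells, 11.9% of the members beside 2.56% of all genes. Bub1b had 0.110 UMIs per 10000 at day 0 and 0.184, 0.290, 0.254 and 0.194 afterwards, with folds of 1.68 (1.19 to 2.37), 2.64 (1.96 to 3.62), 2.31 (1.69 to 3.20) and 1.77 (1.24 to 2.53). Aurkb had 0.299, 0.472, 0.557, 0.546 and 0.546. Both were lowest at day 0. Mki67 had 0.571, 0.855, 0.994, 1.12 and 1.07, and Top2a, at 0.943, 1.20, 1.64, 1.54 and 1.78, was also lowest at day 0. Pcna had 1.16, 1.13, 1.07, 1.19 and 1.45, so days 0 to 9 lay within 1.07 to 1.19 and day 12 above them. The thinned share of monocyte-like cells with at least 3 UMIs of the list was 17.6% at day 0 and 25.3, 22.6, 25.8 and 29.0% afterwards. Neutrophil precursor markers in monocyte-like cells did not move in the same order, at 104, 90.5, 92.9, 102 and 80.7 UMIs per 10000. These markers were higher in cells with at least 3 UMIs of the list than in the others in all 5 libraries. Their sums were 125 against 77.2 at day 0 and 85.2 against 70.5 at day 12. GMP markers were also higher in such cells in each library. Whether droplets with RNA of more than 1 cell raised the list in this class was not tested. Both larger clusters of the class had their highest level at day 12, 36.4 against 23.6 at day 0 in the cluster led by S100a4 and Fn1, and 30.3 against 22.2 in that led by Nr4a2 and Cd83. In the latter, day 3 was below day 0, at 19.6.

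**Figure D5:**
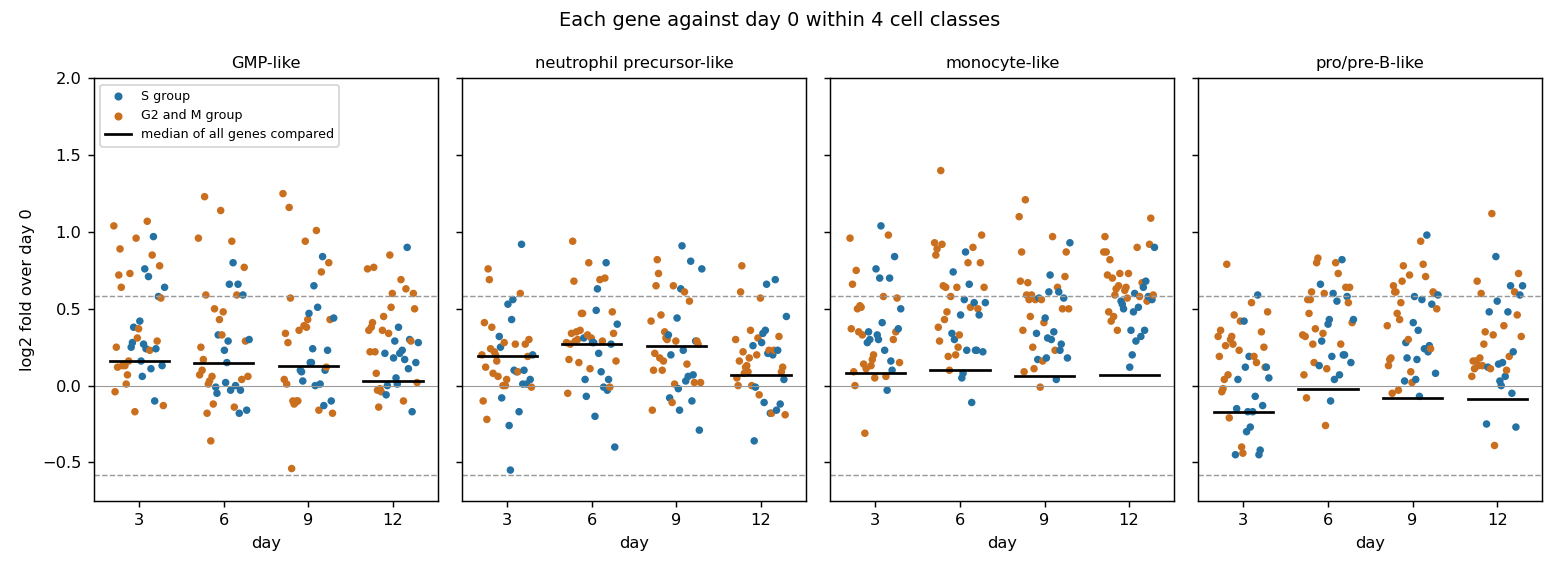
Log2 fold over day 0 of each member (points, S and G2 and M members in different colours) in 4 cell classes at days 3, 6, 9 and 12, with the median of all genes compared as a black bar and the 1.5-fold limits dashed. In monocyte-like cells the members lie mostly above the black bars, whereas in neutrophil precursor-like cells they lie around them at days 3, 6 and 9.

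In pro/pre-B-like cells the list was higher than at day 0 on days 6, 9 and 12, whereas of all genes more were lower than higher on each day. At days 3, 6, 9 and 12, 2 of 42, 11 of 41, 13 of 42 and 9 of 39 members were higher and none lower. Of all genes, 10.8, 6.31, 4.94 and 5.43% were higher and 23.7, 7.83, 10.1 and 17.3% lower. The median log2 fold was 0.12, 0.40, 0.40 and 0.19 over the members and -0.17, -0.02, -0.08 and -0.09 over all genes. Rrm1 was past 1.5-fold on each day, the 1 of 41 members to be so at days 3, 6 and 9, beside 0.816% of all genes. It had 0.675 UMIs per 10000 at day 0 and 1.02, 1.19, 1.33 and 1.06 afterwards. Mki67 had 1.18, 1.71, 2.05, 2.27 and 1.54, or 1.45-fold (1.21 to 1.74), 1.74-fold (1.44 to 2.11), 1.92-fold (1.59 to 2.33) and 1.31-fold (0.942 to 1.80).

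The groups within the pro/pre-B-like class, which are clusters of these same cells, did not move alike. The 290 cells with the highest level were 49 of 318 cells of the class at day 0, 43 of 363 at day 3, 98 of 431 at day 6 and 92 of 434 at day 9, and their level was 139, 145, 123 and 119 UMIs of the list per 10000, so it was lower at days 6 and 9 than at day 0. A group of 251 cells led by Vpreb1 and Igll1, which form the surrogate light chain, and Dntt, which adds bases to rearranging genes, had 28.6, 62.5, 50.5 and 66.6, lowest at day 0. The 633 cells had 9.36, 17.1, 17.7 and 9.24. At day 12 these groups had 8 to 16 cells. The part of this makeup in the folds of the class was not tested.

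The day 3 level of the class depended on the group of 121 cells that came from that library alone. Its cells had a median of 19849 UMIs, against 2195.5 in the other 242 pro/pre-B-like cells of day 3, and its list level was 48.2 per 10000 (47.3 to 49.0) against 71.0 (69.5 to 72.5). Without it, the class was 71.0 at day 3 and 55.9 at day 0, where with it the day 3 level was 0.997 of day 0 (0.970 to 1.02). Cenpf, Cenpe, Nusap1 and Mki67 were then past 1.5-fold at days 3, 6 and 9, 9.76% of the members beside 1.22% of all genes, and Rrm1 was not.

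In that group, nearly every cell expressed the list, at a moderate level. Of its cells, 98.3% had at least 3 UMIs of the list, and 75.8% did after thinning (67.2 to 83.2), against 51.5% (44.3 to 58.6) in the other cells of the class at day 3. Stmn1 had 7.41 UMIs per 10000 in the group, 15.4 in the other cells of day 3 and 15.2 on other days, and Rrm2 had 1.25, 2.58 and 2.56. Ccnb1, the cyclin of mitosis, was not lower, at 1.10, 0.931 and 0.842, nor was Aurkb, at 0.867, 0.803 and 0.702. G2 and M members gave 53.5% of the group's list UMIs and 49.2% in the other cells. Among genes outside the list, chosen after their values were seen, the cell cycle inhibitor gene Cdkn2a had 2.31 UMIs per 10000 in the group, 0.249 in the other cells and 0.0166 on other days. Myl10 had 18.3, 1.92 and 0.866, and Rag1 0.0431, 0.907 and 1.19. Myl10 and Cdkn2a also led a further pro/pre-B-like group of 34 cells, which had a median of 970.5 UMIs. It held 3, 25, 2 and 4 cells at days 0, 3, 6 and 9, so most of its cells were of day 3 as well. Whether its few cells of other days carried these genes was not tested. Its day 3 cells were counted among the other cells above. The group with the higher counts stood apart in 1 library, so what it is and whether it belongs to the graft were not tested. That group held 121 of the 5474 barcodes at day 3. On that day, the paper found hardly any leukaemia cells in the marrow by flow cytometry.

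In plasmacytoid dendritic-like cells the summed list was below day 0 at days 3, 6 and 9. At day 12 it was above, at 46.9 UMIs per 10000 (43.7 to 50.2) against 27.2 (25.8 to 28.6), but that library had 35 such cells, fewer than the 50 required, and was not compared further. Of 20, 21 and 24 members with enough UMIs at days 3, 6 and 9, 5, 7 and 3 were lower and 1, 0 and 1 higher, beside 7.98, 8.77 and 9.31% of all genes lower and 7.68, 8.57 and 8.68% higher. The summed list was 0.808 (0.757 to 0.863), 0.776 (0.728 to 0.828) and 0.923 (0.867 to 0.981) of day 0. Rrm2 was lower on all 3 days, as were 3.86% of all genes, at 0.345 (0.210 to 0.558), 0.508 (0.334 to 0.773) and 0.603 (0.406 to 0.90), and Stmn1 at the first 2, at 0.622 and 0.597. G2 and M members gave 39.1% of the list at day 0 and 51.6, 48.6 and 47.3% afterwards. The class had 117 cells at day 0, and the 10% that held 67.3% of its list UMIs were 12 cells.

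The remaining classes had fewer members to compare. Immature neutrophil-like cells had 1, 2, 4 and 6 members higher and 2, 3, 1 and 1 lower of 36, 36, 38 and 37, beside 13.7, 18.7, 22.1 and 8.94% of all genes higher and 4.25, 3.24, 3.43 and 3.09% lower. Kif20b, a motor of cytokinesis, was lower at days 3, 6 and 9, with 0.0948 UMIs per 10000 at day 0 and 0.0359, 0.0398 and 0.0287 then, but 0.0807 at day 12. Of all genes, 1.49% were lower on those 3 days. In mature neutrophil-like cells at day 9, 8 of 23 members were higher and none lower, beside 13.7% and 7.02% of all genes. In B-like cells at day 6, 18 of 21 were higher and none lower, beside 7.73% and 8.94%, with a median log2 fold of 1.10 against -0.08. Top2a there was 3.02-fold (2.03 to 4.60) and Stmn1 2.11-fold (1.75 to 2.55) of day 0, and the neutrophil precursor markers in B-like cells were 205 per 10000 at day 6 and 118 at day 0.

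Other genes of the cell cycle, taken from wider S and G2 and M lists that leave out the 42 members, were counted in the same way. In monocyte-like cells, 13 of 78, 32 of 81, 20 of 81 and 38 of 78 further G2 and M genes were higher at days 3, 6, 9 and 12 and none lower, and of further S genes 9 of 42, 5 of 41, 7 of 41 and 7 of 41 were higher. Of all genes there, 7.58, 8.19, 8.53 and 6.58% were higher. In GMP-like cells, 21 of 78, 15 of 79, 20 of 80 and 10 of 77 G2 and M genes were higher and 2, 1, 1 and 1 lower. Of 45 S genes there, 6, 3, 4 and 2 were higher, or 13.3, 6.67, 8.89 and 4.44%, below the share of all genes on each day. In neutrophil precursor-like cells, 22.0, 21.0, 17.1 and 6.10% of G2 and M genes were higher, and 2, 3, 3 and 2 genes were lower. Day 3 was above the 13.8% of all genes, and the later days were near or below the share of all genes. Of S genes there, 4.76, 4.76, 9.52 and 2.44% were higher, below all genes on each day, and 1, 0, 1 and 0 genes were lower. In plasmacytoid dendritic-like cells, 8 of 14, 5 of 19 and 3 of 19 S genes were lower at days 3, 6 and 9 and none higher, beside 7.98, 8.77 and 9.31% of all genes lower. Of the G2 and M genes there, 1 of 27, 4 of 31 and 0 of 34 were lower and 0, 1 and 4 higher. In pro/pre-B-like cells, 10 of 79, 16 of 75, 20 of 76 and 7 of 50 G2 and M genes were higher and 3, 2, 0 and 1 lower. Of S genes, 10 of 44, 8 of 41, 9 of 42 and 6 of 33 were higher and 6, 1, 1 and 1 lower. Both lists were above the share of all genes higher, 10.8, 6.31, 4.94 and 5.43%.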

How the data were processed

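The authors aligned reads to mm10 and counted UMIs per gene and barcode in Cell Ranger, and these raw counts were analysed as deposited, empty droplets included. Counts were read in Python 3.11.15, and the 42 members, although listed by name and by no value, and all other lists were chosen with earlier results of these data known. Barcodes with at least 500 UMIs were scaled to 10000, and 20 principal components of 991 variable genes, without cell cycle genes, were clustered with leidenalg 0.10.2 in scanpy 1.11.5 at a resolution of 1.0, which gave 27 clusters. A cluster was named from at least 3 markers of a type. The naming scheme, and the second clustering of GMP-like and pro/pre-B-like cells, were set after seeing the data.

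Levels are summed UMIs of a gene or list per 10000 UMIs of a class and library. Shares of cells with at least 3 UMIs of the list were taken as they are and after thinning each cell to 1000 UMIs. Classes needed 50 cells. Intervals are Poisson, Clopper-Pearson or, for folds, conditional binomial, at 95%, and cover counting error only. Named genes were the 2 members with the most UMIs in each role, Mki67, Pcna and members past 1.5-fold in the same direction at days 3, 6 and 9. The alternatives changed the UMI and mitochondrial limits, doublets, Stmn1, thinning depth, clustering, totals and fold limit.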

Additional observations from a re-analysis of the deposited data

How the results depend on the processing

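Relative to day 0, the summed level was 1.27, 1.21, 1.22 and 1.07 at days 3, 6, 9 and 12 and the share of barcodes with at least 3 UMIs of the list 1.33, 1.26, 1.24 and 1.01. With the limit on mitochondrial share, the share became 1.40 at day 3 and 0.843 at day 12 and the level 0.861 at day 12, where most GMP-like cells were removed. Without Stmn1 the shares at days 6 and 9 were 1.19 and 1.18 and the levels at days 3, 6 and 12 were 1.29, 1.23 and 1.05. Thinning to 1000 UMIs gave shares of 1.06 and 1.18 at days 6 and 9, thinning to 500 gave 1.41, 1.18 and 1.15 at days 3, 6 and 12, and a limit of 5 UMIs gave 1.11 and 1.18 at days 6 and 9. The class mix of day 0 gave levels of 1.19, 1.24, 1.25 and 1.22 and a day 12 share of 1.12. Leaving out the 121 day 3 cells gave a day 3 level of 1.18, and leaving out the top 5% of doublet scores gave 1.28 at day 3 and 1.10 at day 12.

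The difference in G2 and M share between neutrophil precursor-like and GMP-like cells, 18.0 points, was 19.0 at a resolution of 0.6 and 13.2 with cell cycle genes in the clustering. The counts of members past 1.5-fold at days 3, 6 and 9 were 8 in GMP-like, 3 in neutrophil precursor-like, 5 in monocyte-like and 1 in pro/pre-B-like cells. A 2-fold limit left 0 in each. In monocyte-like cells the count was 8 with the mitochondrial limit, 9 at a resolution of 0.6 and 8 without the top doublet scores. In pro/pre-B-like cells it was 0 with at least 1000 UMIs and 0 without Scrublet doublets, 2 at a resolution of 0.6 and 2 with totals free of haemoglobin, mitochondrial and immunoglobulin genes, and 4 without the 121 cells. Apart from shares taken at another depth, the causes were not tested. Of 338 folds over day 0 by class, 94 moved beyond their counting interval, 2 of them by over 1.5 times, both with cell cycle genes in the clustering, and 15 lay on the other side of 1, 6 of them with that clustering. Of 380 shares of cells, 87 moved, and of 380 G2 and M shares 94. Thinning to 1000 UMIs moved 47 of 48 shares of cells, 39 of them by over 1.5 times, and leaving out Stmn1 moved 48 of 48 G2 and M shares. Leaving out clusters mostly of 1 library was not run, since no cluster at a resolution of 1.0 had over 80% of its cells from 1 library. No paired analysis was possible because each day had 1 mouse.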
